A study of Homo sapiens with 12 samples.

Results

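The insulin-like growth factor (IGF) family comprises the ligands IGF1 and IGF2, the receptor IGF1R and the binding proteins IGFBP1 to IGFBP7. It was followed in Imr90 cells, a human lung fibroblast line with a limited replicative life. All 10 genes were taken by name, and a probe set was counted as a member when it names only 1 of them, under its current or a former symbol. By that rule 9 of the 10 genes were measured, with 26 of the 54675 probe sets of the array, and the value of a gene is the mean of its probe sets. IGF2 has no probe set of its own. In all, 19775 genes were measured in this way.

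The 12 Affymetrix arrays fall into 4 groups of 3, labelled biological replicates. Old cells at 3% oxygen had reached population doubling (PD) 53 and were not senescent. Young cells at 3% oxygen were at PD 30. Senescent cells at 20% oxygen were at PD 48, and young cells at 20% oxygen were at PD 30. All 4 groups are the same line in the same serum-containing medium and were harvested before confluence. Each oxygen level had its own incubator, with nitrogen gas holding the 3% one, so oxygen and incubator cannot be told apart. Growth stage in turn goes together with oxygen history, because the oldest cells at 20% oxygen were senescent and those at 3% oxygen were not. Nothing states that the replicates came from separately maintained cultures, so the p-values measure the spread between these arrays. Values are on the log2 scale, as deposited, with the median of the 12 arrays subtracted from each probe set: 0 is the middle of these arrays, a difference of 1 is a doubling, and no level can be set against that of another gene.

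IGF1 and IGF2 are secreted peptides that bind IGF1R, a receptor tyrosine kinase that feeds growth and survival signals through PI3K and AKT. The binding proteins hold the ligands in the extracellular space with high affinity, and proteases release the ligands by cutting them. IGFBP7 is the exception, with a low affinity for IGFs. Cultured fibroblasts make several of the binding proteins, and IGFBP3, IGFBP5 and IGFBP7 are among the secreted proteins most often described in senescent cells.

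In young cells, 3% oxygen was associated with a rearranged set of binding proteins: IGFBP2, IGFBP5 and IGFBP4 were lower than at 20% oxygen, and IGFBP3 and IGFBP6 were higher. Senescent cells at 20% oxygen had more IGFBP3 and less IGFBP2 than young cells at the same oxygen, while IGFBP5 and IGFBP4 did not pass the test. A gene was called at an adjusted p under 0.05 in a limma fit over all genes (Benjamini-Hochberg adjustment, two-sided).

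**Figure D1:**
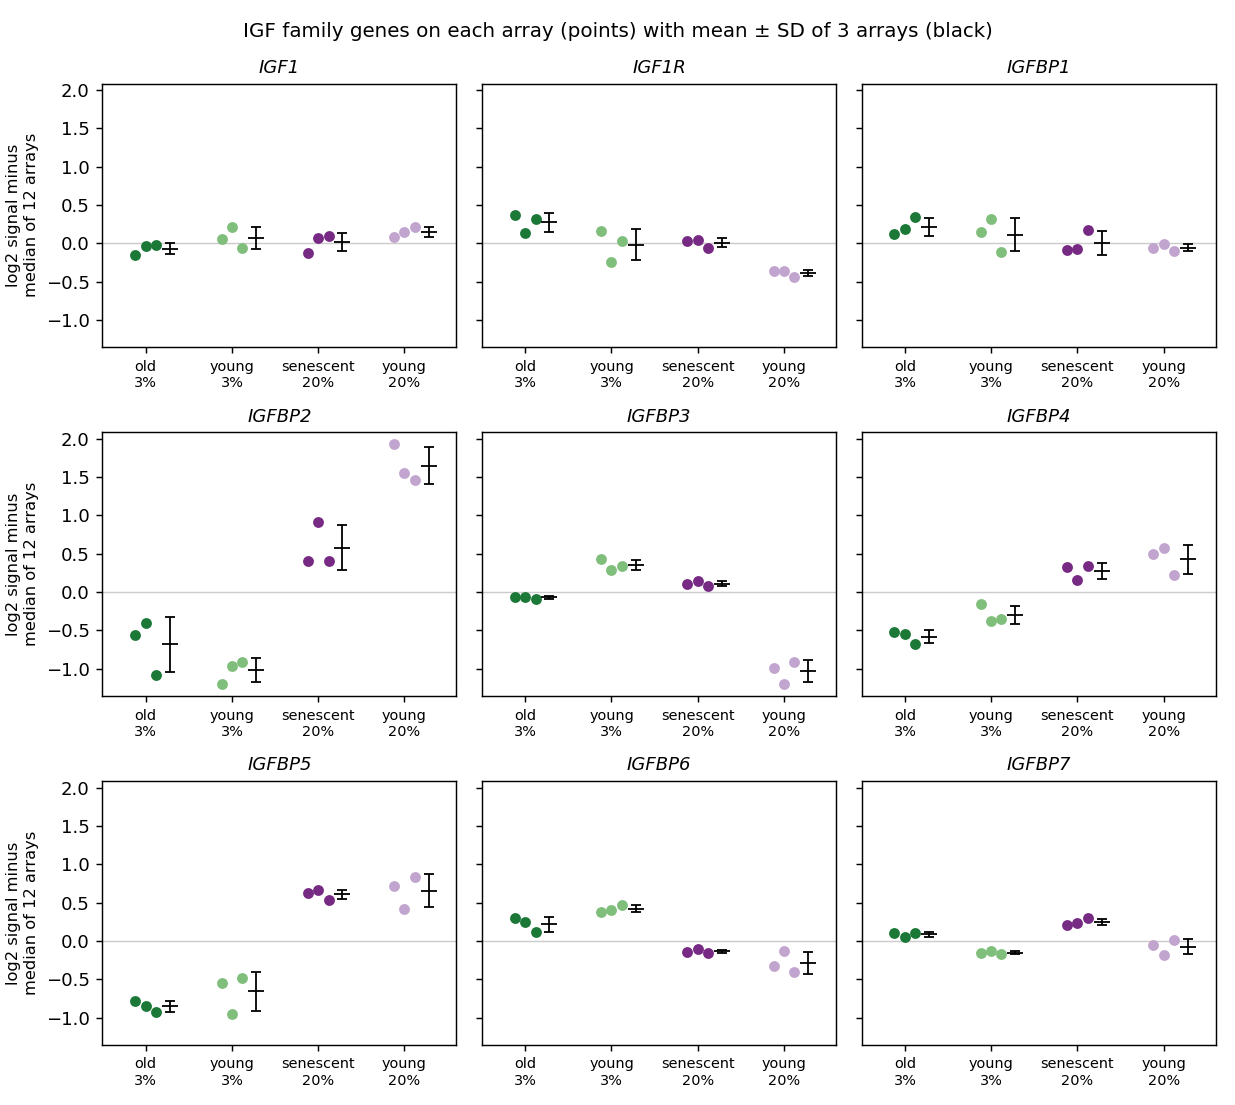
Log2 signal of the 9 measured IGF family genes relative to the probe set median (vertical axis), 1 panel per gene. Coloured points are single arrays and black marks are mean ± SD of 3 arrays in old 3%, young 3%, senescent 20% and young 20% cultures. IGFBP2, IGFBP4 and IGFBP5 sit lower in both 3% groups than in both 20% groups, whereas IGFBP3 is low only in young cells at 20% oxygen.

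IGF1, the ligand with probe sets of its own, was called in none of the comparisons below. It stood at -0.16, -0.04 and -0.03 in old 3% cultures, at 0.06, 0.22 and -0.06 in young 3% cultures, at -0.13, 0.07 and 0.09 in senescent 20% cultures and at 0.08, 0.14 and 0.22 in young 20% cultures. All 12 values, each a mean of 5 probe sets, lay within a narrow range around 0. None of its 5 probe sets was called by limma in the 4 comparisons or the interaction, and 1 had an unadjusted p under 0.05, 209541_at with -0.44 in old against young cells at 3% oxygen. In the same comparison 209542_x_at had 0.30, so the gene mean joins changes of both signs. In old 3% against young 20% cultures 209541_at had -0.62 (adjusted p = 0.0543), without overlap. The gene mean of IGFBP1 was not called either. It stood at 0.12, 0.18 and 0.35 in old 3% cultures, at 0.14, 0.31 and -0.12 in young 3% cultures, at -0.09, -0.08 and 0.18 in senescent 20% cultures and at -0.06, -0.02 and -0.10 in young 20% cultures. Its young 3% values overlapped those of every other group. In old 3% against young 20% cultures its probe set 205302_at was called higher (0.48 log2, adjusted p = 0.0265), and 237989_at was not (0.07).

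The comparison of young cells at 3% with young cells at 20% oxygen asks what oxygen does at equal population doublings. Of the 9 genes, 6 were called, 3 higher (IGFBP3, IGFBP6 and IGF1R) and 3 lower (IGFBP2, IGFBP5 and IGFBP4) at 3% oxygen. Over all genes tested 11.8% were called (4.96% higher and 6.84% lower), and of the 26 probe sets 13 were, 5 higher and 8 lower, where 8.55% of all probe sets were. The median absolute change was 0.70 over the 9 genes and 0.16 over all genes, on the log2 scale.

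IGFBP2, which binds IGF2 more tightly than IGF1, changed most. The 3 young 3% arrays stood at -1.20, -0.96 and -0.91 and the 3 young 20% arrays at 1.93, 1.56 and 1.47. The groups were far apart, with no value between -0.91 and 1.47. Young cells at 3% oxygen averaged -1.02 ± 0.16 and young cells at 20% oxygen 1.65 ± 0.24 (SD, n = 3 each), a change of -2.67 ± 0.19 (log2, SE) or 6.37-fold lower at 3% oxygen (adjusted p = 1.30e-06). By absolute size it ranked 25 among the 19775 genes. These are whole-culture values, in which fewer cells making a transcript and less of it per cell cannot be told apart.

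IGFBP5, a binding protein that attaches to the extracellular matrix, lies next to IGFBP2 on chromosome 2, with no protein-coding gene between them in the GRCh38.p14 annotation. It stood at -0.55, -0.95 and -0.48 in young 3% cultures and at 0.71, 0.42 and 0.84 in young 20% cultures. Each young 3% array was below each young 20% array. The change was -1.32 ± 0.14 (log2, SE), 2.49-fold lower at 3% oxygen (adjusted p = 2.71e-05). Among its 6 probe sets, 5 were called, with changes between -1.78 and -1.02, and 211959_at was not, with -0.24 (adjusted p = 0.216). The lowest young 3% value, -0.95, came from the array with the largest difference between the 3′ and 5′ control probe sets of ACTB, a measure of RNA or labelling quality. Without that array the IGFBP5 change was -1.17 (adjusted p = 9.35e-05).

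IGFBP4, an inhibitory binding protein cut by the protease PAPPA, has 1 probe set and moved the same way. It stood at -0.16, -0.38 and -0.36 in young 3% cultures and at 0.49, 0.58 and 0.22 in young 20% cultures. The groups did not overlap. The change was -0.73 ± 0.11 (log2, SE), 1.66-fold lower at 3% oxygen (adjusted p = 0.000763).

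IGFBP3, the main carrier of IGFs in blood, moved in the opposite direction. It stood at 0.43, 0.29 and 0.34 in young 3% cultures and at -0.99, -1.20 and -0.92 in young 20% cultures. Every young 3% array was above every young 20% array by more than the spread within either group. The change was 1.39 ± 0.09 (log2, SE), 2.61-fold higher at 3% oxygen (adjusted p = 5.75e-07), and its 2 probe sets gave 1.24 and 1.53. Its neighbour on chromosome 7, IGFBP1, a binding protein best known from liver, was not called (0.17 ± 0.12 log2, SE; adjusted p = 0.434). Both adjacent members were called in the IGFBP2 and IGFBP5 pair, and 1 of 2 in the IGFBP3 and IGFBP1 pair.

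IGFBP6, a binding protein with a marked preference for IGF2, stood at 0.38, 0.41 and 0.47 in young 3% cultures and at -0.33, -0.13 and -0.40 in young 20% cultures. The groups did not overlap. The change was 0.70 ± 0.09 (log2, SE), 1.63-fold higher at 3% oxygen (adjusted p = 0.000242).

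IGF1R was higher by 0.37 ± 0.11 (log2, SE; 1.29-fold, adjusted p = 0.0451) in young cells at 3% oxygen. It stood at 0.16, -0.24 and 0.03 in young 3% cultures and at -0.36, -0.37 and -0.44 in young 20% cultures. The groups did not overlap, but the young 3% arrays were spread widely. The call ended when any 1 of 9 of the 12 arrays was left out, with adjusted p-values of up to 0.171, and also with only the 2 groups in the fit (adjusted p = 0.101) and after the filter on flat genes (adjusted p = 0.0604). It rests on 2 of the 5 probe sets, 225330_at with 0.77 and 203628_at with 0.59, and the other 3 had 0.00 to 0.34 and were not called. Without the young 3% array that stood apart in the ACTB measure, the change was 0.48 (adjusted p = 0.00995). IGF1 (-0.07 ± 0.10) and IGFBP7 (-0.08 ± 0.08, both log2, SE) were not called, and the 95% interval of the IGF1 change was -0.29 to 0.14. The IGFBP7 mean covers probe sets that moved apart: 213910_at was called lower with -0.44 (adjusted p = 0.0198), and 201162_at had 0.21 and was not called.

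The letters before the start sites of IGFBP2, IGFBP5 and IGFBP3 are shown because these 3 genes had the largest changes with oxygen in young cells. They are the 250 bases upstream of the RefSeq start in GRCh38.p14, at chr2:216632578-216632827 (plus strand), chr2:216695550-216695799 (minus strand) and chr7:45921273-45921522 (minus strand), read 5′ to 3′ in the direction of the gene. Capitals mark GCGTG or its reverse complement, 1 of the 2 core words of the hypoxia response element searched.
IGFBP2: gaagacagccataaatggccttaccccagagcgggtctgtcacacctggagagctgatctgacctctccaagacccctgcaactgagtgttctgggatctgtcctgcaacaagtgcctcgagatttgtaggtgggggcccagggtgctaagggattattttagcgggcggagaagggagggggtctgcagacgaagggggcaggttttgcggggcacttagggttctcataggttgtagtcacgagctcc
IGFBP5: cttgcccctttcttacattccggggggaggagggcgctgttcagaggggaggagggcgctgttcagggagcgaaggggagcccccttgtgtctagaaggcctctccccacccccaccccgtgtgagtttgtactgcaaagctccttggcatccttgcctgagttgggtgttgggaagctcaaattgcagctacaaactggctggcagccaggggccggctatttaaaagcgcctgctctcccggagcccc
IGFBP3: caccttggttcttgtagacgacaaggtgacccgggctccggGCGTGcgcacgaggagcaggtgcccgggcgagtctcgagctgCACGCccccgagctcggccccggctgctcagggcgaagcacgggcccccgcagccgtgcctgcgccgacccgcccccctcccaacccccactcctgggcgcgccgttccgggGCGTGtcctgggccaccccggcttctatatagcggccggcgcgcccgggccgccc

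Both core words, ACGTG and GCGTG, which share the letters CGTG, were searched on both strands, together with the TATA word TATAAA. The IGFBP3 window holds GCGTG 3 times, with first bases at -209, -167 and -55 from the start, of which the one at -167 is on the opposite strand. The IGFBP2 and IGFBP5 windows hold none of the 3 words. A window was given for 7 of the 10 family genes. Of the others, IGF1R holds ACGTG 1 time and GCGTG 4 times, IGFBP4 holds TATAAA at -29, and IGF1 and IGFBP6 hold none. Among the windows of 15384 genes on the array, 39.3% hold GCGTG, 21.2% ACGTG, 50.9% at least 1 of these and 8.31% TATAAA. A match is a word in the sequence and no evidence of a bound factor. The windows differ in base composition, with 56.8% G and C in IGFBP2, 61.2% in IGFBP5 and 76% in IGFBP3, against a median of 58% over all windows.

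The comparison of senescent with young cells at 20% oxygen asks what replicative senescence brings in standard culture. It shares its young 20% arrays with the comparison just described. Here 4 of the 9 genes were called, 3 higher (IGFBP3, IGF1R and IGFBP7) and 1 lower (IGFBP2), and over all genes 12.5% were called (4.67% higher and 7.84% lower). The median change was 0.06 over the 9 genes and 0.04 over all genes (log2).

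IGFBP3 stood at 0.11, 0.15 and 0.08 in senescent 20% cultures and at -0.99, -1.20 and -0.92 in young 20% cultures. The senescent arrays were close together and all above the young ones. The change was 1.15 ± 0.09 (log2, SE), 2.21-fold higher in senescent cells (adjusted p = 4.47e-06), and its 2 probe sets gave 1.06 and 1.23.

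IGFBP2 stood at 0.41, 0.91 and 0.41 in senescent 20% cultures and at 1.93, 1.56 and 1.47 in young 20% cultures. All senescent arrays were below all young arrays. The change was -1.07 ± 0.19 (log2, SE), 2.10-fold lower in senescent cells (adjusted p = 0.00259). When the arrays were quantile normalized again, the change was -0.63 and the call ended (adjusted p = 0.0852).

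IGF1R averaged 0.01 ± 0.06 in senescent 20% cultures and -0.39 ± 0.04 in young 20% cultures (SD, n = 3 each), and the arrays did not overlap. The change was 0.40 ± 0.11 (log2, SE), 1.32-fold higher in senescent cells (adjusted p = 0.0316). Leaving out any 1 of these 6 arrays ended the call, with adjusted p-values of 0.0574 to 0.102. It rests on 2 of the 5 probe sets, 203628_at with 0.78 (adjusted p = 0.00125) and 225330_at with 0.83 (adjusted p = 0.000135). The other 3 gave 0.00 to 0.24 and were not called.

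IGFBP7, which binds IGFs weakly and also binds insulin and activin, was higher by 0.32 ± 0.08 (log2, SE; 1.25-fold, adjusted p = 0.0208) as a gene mean, but its probe sets moved in opposite directions. Probe set 201162_at stood at 0.53, 0.52 and 0.56 in senescent 20% cultures and at -0.31, -0.49 and -0.19 in young 20% cultures, a change of 0.87 ± 0.11 (log2, SE; adjusted p = 0.000232). Probe set 201163_s_at gave 0.77 ± 0.14 (log2, SE; adjusted p = 0.00273). Probe set 213910_at stood at -0.26, -0.25 and -0.24 in senescent 20% cultures and at 0.40, 0.42 and 0.45 in young 20% cultures, a change of -0.67 ± 0.10 (log2, SE; adjusted p = 0.00116). Each of the 3 was called, so the gene mean averages called changes of both signs and its direction depends on the probe sets taken. Which transcripts the 3 probe sets detect was not tested. The call on the gene mean also ended without either of 2 young or 2 senescent arrays (adjusted p of 0.0563 to 0.102) and with only the 2 groups in the fit (adjusted p = 0.0533).

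**Figure D2:**
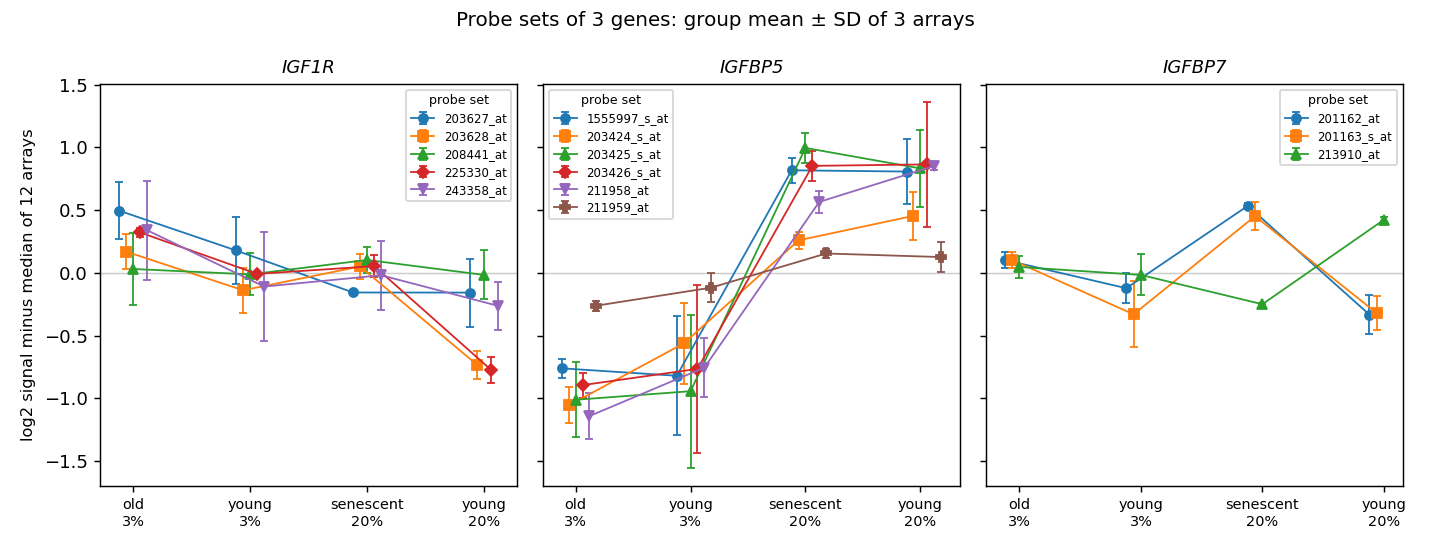
Log2 signal relative to the probe set median (vertical axis) of the probe sets of IGF1R, IGFBP5 and IGFBP7 in old 3%, young 3%, senescent 20% and young 20% cultures, as mean ± SD of 3 arrays, with a line joining each probe set's groups. Of the IGFBP7 probe sets, 213910_at is lowest in senescent 20% cultures, where the other 2 are highest, and of the IGFBP5 probe sets 211959_at has the smallest range.

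IGFBP5 was not called between senescent and young cells at 20% oxygen. It stood at 0.62, 0.66 and 0.54 in senescent 20% cultures and at 0.71, 0.42 and 0.84 in young 20% cultures, and the values overlapped. The change was -0.05 ± 0.14 (log2, SE; 95% interval -0.34 to 0.25; adjusted p = 0.913), and none of its 6 probe sets was called. IGFBP4 (-0.15 ± 0.11), IGFBP6 (0.15 ± 0.09), IGF1 (-0.13 ± 0.10) and IGFBP1 (0.06 ± 0.12, all log2, SE) were not called either. At the level of probe sets, 8 of the 26 were called, 6 higher and 2 lower, where 9.46% of all probe sets were.

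The comparison of old with young cells at 3% oxygen asks what changes with passage where senescence has not been reached. Of the 9 genes 1 was called, IGFBP3, which was lower, and over all genes 1.74% were called (0.981% higher and 0.759% lower). IGFBP3 stood at -0.06, -0.06 and -0.09 in old 3% cultures and at 0.43, 0.29 and 0.34 in young 3% cultures. The old arrays lay within a narrow band below all young ones. The change was -0.42 ± 0.09 (log2, SE), 1.34-fold lower in old cells (adjusted p = 0.0366), opposite in sign to the change at 20% oxygen. Leaving out any 1 of 10 of the 12 arrays ended the call (adjusted p of up to 0.125), and neither of its 2 probe sets was called alone.

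None of the other 8 genes passed the test between old and young cells at 3% oxygen, with changes between -0.28 (IGFBP4) and 0.34 (IGFBP2) on the log2 scale. IGFBP2 stood at -0.55, -0.41 and -1.08 in old 3% cultures and at -1.20, -0.96 and -0.91 in young 3% cultures, and the values overlapped (0.34 ± 0.19 log2, SE; adjusted p = 0.418). IGFBP5 changed by -0.19 ± 0.14 and IGF1R by 0.29 ± 0.11 (log2, SE), with adjusted p-values of 0.481 and 0.276. None of the 26 probe sets was called by limma, where 0.941% of all probe sets were, and 10 had an unadjusted p under 0.05. No share of all probe sets is given at that unadjusted threshold. Probe sets of 1 gene are not independent, and 6 of the 26 are those of IGFBP5.

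**Figure D3:**
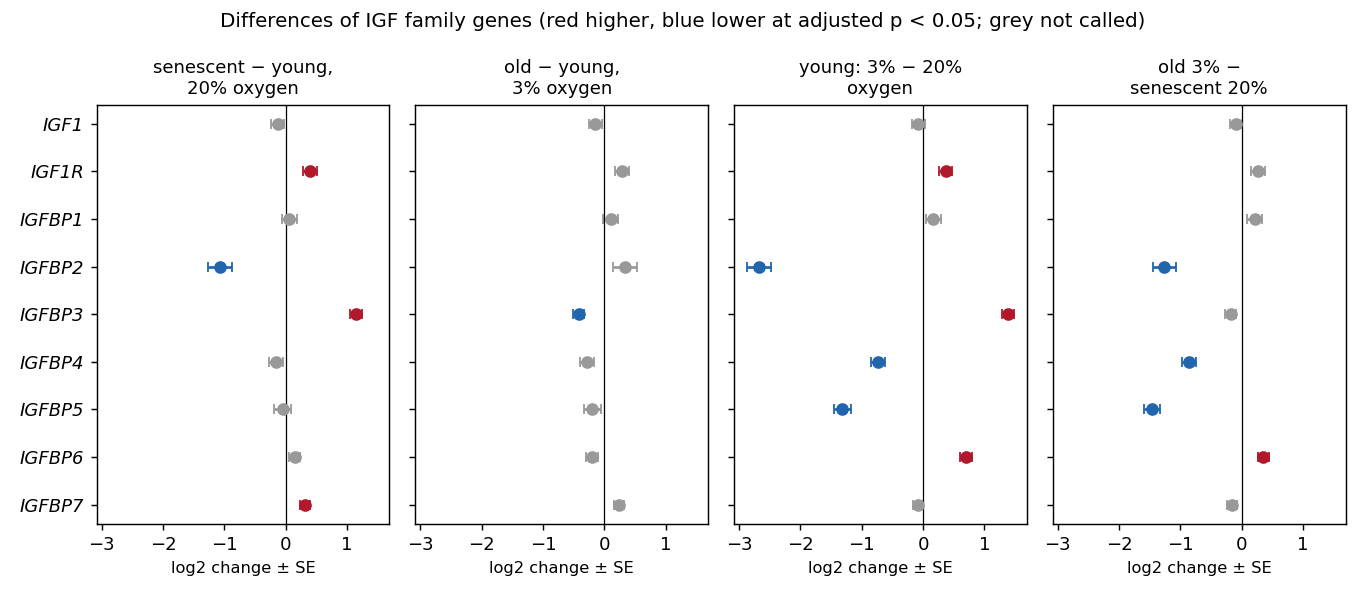
Log2 change of the 9 IGF family genes (horizontal axis, ± SE) in 4 comparisons: senescent minus young at 20% oxygen, old minus young at 3% oxygen, young at 3% minus young at 20% oxygen, and old at 3% minus senescent at 20% oxygen. Red genes were called higher and blue ones lower at an adjusted p under 0.05, and grey ones were not called. IGFBP5, IGFBP4 and IGFBP6 were called in both comparisons between oxygen levels and in neither comparison across passage. Old 3% and senescent 20% cultures differ in population doublings and senescence as well as in oxygen.

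Old cells at 3% oxygen and senescent cells at 20% oxygen are the late cultures of each oxygen level, and differ in population doublings and in senescence as well as in oxygen. Of the 9 genes 4 were called, 1 higher (IGFBP6) and 3 lower (IGFBP5, IGFBP2 and IGFBP4) in old cells, and over all genes 11% were called (6.59% higher and 4.41% lower). Of the 26 probe sets 10 were called, 1 higher and 9 lower, where 7.73% of all probe sets were. The 1 higher was 203627_at of IGF1R (0.65 log2, adjusted p = 0.0342), a gene whose mean was not called (0.27, adjusted p = 0.180). The IGFBP6 probe set was not called in the fit of probe sets (adjusted p = 0.0592). IGFBP5 stood at -0.78, -0.86 and -0.92 in old 3% cultures and at 0.62, 0.66 and 0.54 in senescent 20% cultures. The groups were more than 1 log2 unit apart at their nearest arrays. The change was -1.46 ± 0.14 (log2, SE), 2.75-fold lower in old cells (adjusted p = 1.02e-05), and all 6 probe sets were called, with changes between -2.01 and -0.42.

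IGFBP2 was 2.39-fold lower in old 3% than in senescent 20% cultures (-1.26 ± 0.19 log2, SE; adjusted p = 0.000781). Its old 3% arrays stood at -0.55, -0.41 and -1.08 and its senescent 20% arrays at 0.41, 0.91 and 0.41. IGFBP4 stood at -0.52, -0.55 and -0.67 in old 3% cultures and at 0.32, 0.16 and 0.34 in senescent 20% cultures. It was 1.81-fold lower in old cells (-0.86 ± 0.11 log2, SE; adjusted p = 0.000205). Neither gene overlapped between the groups.

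IGFBP6 stood at 0.30, 0.25 and 0.11 in old 3% cultures and at -0.14, -0.11 and -0.16 in senescent 20% cultures, without overlap. It was 1.28-fold higher in old cells (0.36 ± 0.09 log2, SE; adjusted p = 0.0268). The call ended without any 1 of 5 arrays and in 4 other fits (adjusted p of 0.0525 to 0.0993 in all). IGFBP3 differed by -0.18 ± 0.09 and IGFBP7 by -0.16 ± 0.08 (log2, SE), and neither was called. Of the IGFBP7 probe sets, 201162_at was called lower (-0.43 log2, adjusted p = 0.0284), while 201163_s_at had -0.35 and 213910_at 0.30 and were not called.

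The passage change at 20% oxygen was then set against the passage change at 3% oxygen as an interaction term, which uses the young arrays of each oxygen level once. Of the 9 genes 2 were called, 1 higher and 1 lower, and over all genes 6.44% were (2.06% higher and 4.37% lower). Of the 26 probe sets 5 were called, where 4.84% of all were. IGFBP3 gave 1.57 ± 0.13 (log2, SE; adjusted p = 1.40e-05): it was higher with passage at 20% oxygen and lower at 3% oxygen. IGFBP2 gave -1.41 ± 0.27 (log2, SE; adjusted p = 0.00765): it was lower with passage at 20% oxygen, with a change of 0.34 that was not called at 3% oxygen. The IGFBP2 call ended when the arrays were quantile normalized again (-1.04, adjusted p = 0.0713). For IGFBP6 the term was 0.35 ± 0.13 (log2, SE; adjusted p = 0.169), and the other 6 gene means had adjusted p-values of at least 0.72. Among these, the IGFBP7 mean (0.08) joins probe sets called in opposite directions, 201162_at with 0.64 (adjusted p = 0.0317) and 213910_at with -0.74 (adjusted p = 0.0123).

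Ordered by group mean, the genes fell into several patterns. This uses 2 further differences between groups, of senescent 20% against young 3% cultures, in which 10.9% of all genes were called, and of old 3% against young 20% cultures, in which 13.3% were. For IGFBP2 the order from high to low was young 20%, senescent 20%, old 3% and young 3%, in which the last 2 were not called different and overlapped. IGFBP4 and IGFBP5 were high in both 20% groups and low in both 3% groups, and the groups at 1 oxygen level were not called different. For IGFBP4 the old 3% arrays all lay below the young 3% arrays nonetheless (95% interval of the difference -0.52 to -0.04, adjusted p = 0.300). The IGFBP5 probe sets ranged from -0.49 (203424_s_at) to 0.06 (1555997_s_at) in old against young cells at 3% oxygen. In senescent against young cells at 20% oxygen they ranged from -0.29 (211958_at) to 0.16 (203425_s_at), and none was called in either comparison. IGFBP6 was high in both 3% groups and low in both 20% groups, again with no called difference within an oxygen level. Its old 3% arrays all lay below its young 3% arrays, and array quality weights called it higher in senescent than in young 20% cultures (0.16 log2, adjusted p = 0.0374). Those weights called 6203 of all 19775 genes in that comparison, against 2474 in the main fit. IGFBP3 was low in young 20% cultures. The other 3 groups followed each other above it (young 3%, senescent 20%, old 3%) with no called difference between neighbours, although the ends of that row, old and young at 3% oxygen, differed. IGF1R was also lowest in young 20% cultures, with young 3%, senescent 20% and old 3% cultures above it in rising order. Of its differences between neighbours only that of young 3% against young 20% cultures was called, and old and young cells at 3% oxygen were not called different. Old 3% cultures were called above young 20% cultures (0.66 ± 0.11 log2, SE; adjusted p = 0.00110), and no single array left out ended that call. The IGF1R probe sets 225330_at, 203628_at and 203627_at were called there, and 243358_at (0.60) and 208441_at (0.05) were not. Probe set 203627_at averaged -0.16 in both 20% groups and 0.18 in young 3% cultures, which departs from the order of the mean. For IGF1, IGFBP1 and the IGFBP7 gene mean no neighbours in the order were called different. The IGFBP7 mean was highest in senescent 20% cultures, called above young 20% (0.32, adjusted p = 0.0208) and young 3% cultures (0.40, adjusted p = 0.00609). Its probe set 213910_at had the opposite sign in both. Old 3% against young 20% was not called for IGF1 (adjusted p = 0.225), but was with the most variable probe set per gene (adjusted p = 0.0467). For the IGFBP1 mean it was not called (0.27, adjusted p = 0.200), but was with the ACTB measure as a covariate (0.33, adjusted p = 0.0462).

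For each called gene the 3 other genes with the closest course over the 12 arrays were found, by the root mean square of the difference after each gene's own mean was subtracted. This is a description over 12 arrays that share 4 groups. IGFBP2, whose values have an SD of 1.08 over the arrays, was followed most closely by TNFRSF11B (0.21), TSLP (0.24) and ABAT (0.328). IGFBP5, with an SD of 0.712, was nearest to EDN1 (0.133), TNFSF4 (0.17) and CCND2 (0.175). IGFBP3, with an SD of 0.531, was nearest to AS3MT (0.138), SLC2A1 (0.17) and INSIG2 (0.19). The genes nearest to IGFBP4 (SD 0.426) were NAP1L5, PRUNE2 and SLC40A1, and to IGFBP6 (SD 0.289) OSBPL9, SYNPO and HDGF. Those nearest to IGF1R (SD 0.256) were CRIPT, TMEM50A and SYPL1, and to the IGFBP7 mean (SD 0.161) GOLT1B, SLC47A2 and TMEM167B. The differences for these genes lay between 0.0584 and 0.129, beside smaller SDs than those above. The IGFBP7 mean joins probe sets that moved in opposite directions.

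Genes around the family were described in lists, with up to 4 called genes of the largest change named per list and comparison. Of all genes, 12.5% were called in senescent against young cells at 20% oxygen and 11.8% in young cells at 3% against 20% oxygen. The shares were 11% in old 3% against senescent 20% cultures and 1.74% in old against young cells at 3% oxygen. For counts at an unadjusted p under 0.05 no share of all genes is given. Among 21 proteases that cut binding proteins, their inhibitors and partners of the circulating complex, 10 were called in senescent against young cells at 20% oxygen, 6 higher and 4 lower (median 0.14, against 0.04 over all genes, log2). The collagenase MMP1 was 3.47-fold higher. The complement proteases C1R and C1S were 3.66-fold and 2.35-fold lower, and the urokinase gene PLAU 2.78-fold lower. In young cells at 3% against 20% oxygen, 2 were higher and 7 lower (median -0.28, against -0.03 over all genes), led by C1S (4.11-fold lower), PLAU (3.50-fold lower), C1R (3.43-fold lower) and MMP1 (1.87-fold lower).

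In old 3% against senescent 20% cultures, 1 protease list gene was higher and 6 were lower (median -0.14, against -0.02 over all genes). MMP1 was 3.98-fold lower, MMP3 3.01-fold lower, C1S 1.89-fold lower and PAPPA, the protease of IGFBP4, 1.53-fold lower (adjusted p = 0.000336). In old against young cells at 3% oxygen, 2 were higher and 1 lower (median 0.12, against 0.05 over all genes). These were STC1, an inhibitor of PAPPA (1.86-fold higher), MMP1 (1.63-fold higher) and HTRA1, a serine protease that cuts IGFBP5 (1.42-fold lower). MMP1 was thus called higher with passage at both oxygen levels, and the difference between the 2 changes was 1.09 (log2, adjusted p = 0.00178).

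Of 24 measured genes of PI3K, AKT and mTOR signalling, 3 were higher and 4 lower in senescent against young cells at 20% oxygen (median 0.00). DDIT4, an inhibitor of mTOR complex 1 that responds to low oxygen and stress, was 4.13-fold higher, and EIF4EBP1, a translation repressor under mTOR, 2.37-fold higher. The PI3K subunits PIK3R1 and PIK3R3 were 1.71-fold and 1.55-fold lower. In young cells at 3% against 20% oxygen, 3 were higher and 1 lower (median -0.04): DDIT4 was 6.32-fold higher, EIF4EBP1 2.57-fold higher, the AKT phosphatase PHLPP1 1.26-fold higher and PIK3R3 1.74-fold lower. In old 3% against senescent 20% cultures, 4 were higher (median 0.06), DDIT4, SGK1, PIK3R1 and RHEB, by between 1.26-fold and 1.76-fold, and none was lower, also at an unadjusted p under 0.05. None was called by limma between old and young cells at 3% oxygen, where 3 had an unadjusted p under 0.05.

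Of the 13 receptors and signalling partners, 1 was called in senescent against young cells at 20% oxygen, where 12.5% of all genes were (median 0.17, against 0.04 over all genes). INSR, the insulin receptor, which forms hybrids with IGF1R, was 1.41-fold higher there (0.50 log2, adjusted p = 0.00119). In young cells at 3% against 20% oxygen INSR was 1.29-fold higher and the adaptor SHC1 1.39-fold lower (median of the list -0.04). In old 3% against senescent 20% cultures SHC1 was 1.48-fold and the docking protein GAB1 1.30-fold lower (median -0.09), and none was called by limma between old and young cells at 3% oxygen (median 0.13), where 5 had an unadjusted p under 0.05.

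FOXO factors act downstream of AKT, which keeps them out of the nucleus. In senescent against young cells at 20% oxygen 4.67% of all genes were called higher and 7.84% lower. Of 19 FOXO genes and targets, 6 were called higher and none lower by limma in that comparison (median 0.24, against 0.04 over all genes). At an unadjusted p under 0.05 there were 9 higher and 3 lower. The largest changes were those of CCNG2 (2.03-fold), TXNIP (1.83-fold), CITED2 (1.77-fold) and KLHL24 (1.62-fold). In young cells at 3% against 20% oxygen, 2 were higher (CCNG2 and the cell cycle inhibitor CDKN1B) and 2 lower (GADD45A and BCL6), with a median of -0.03. In old against young cells at 3% oxygen CCNG2 was 1.47-fold higher and the stress gene GADD45A 1.65-fold lower (median 0.11). In old 3% against senescent 20% cultures 4 were lower (median -0.11): TXNIP (2.32-fold), GADD45A (2.15-fold), CITED2 (1.60-fold) and SESN1 (1.37-fold). None was called higher, and 1 was higher at an unadjusted p under 0.05.

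Among 13 other proteins with an IGFBP-type domain, ESM1, an endothelial proteoglycan also made by other cells, was 5.47-fold lower in senescent 20% than in young 20% cultures (adjusted p = 3.52e-07). It was 3.53-fold lower in old than in young cells at 3% oxygen (adjusted p = 2.42e-05) and 1.82-fold lower in young cells at 3% than at 20% oxygen. CCN4, a matricellular Wnt target, was 1.63-fold lower in senescent 20% than in young 20% cultures and 1.57-fold higher in old than in young cells at 3% oxygen, and the interaction was -1.35 (log2, adjusted p = 0.000221). Over the 4 comparisons the calls in this list were 1 higher and 2 lower (senescent against young at 20% oxygen), 1 higher and 3 lower (old against young at 3%), 2 higher and 1 lower (young at 3% against 20%) and 2 of each (old 3% against senescent 20%). The medians in the same order were -0.03, 0.15, -0.04 and 0.05.

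Of 15 measured genes of the IGF2 locus, IGF2 mRNA binding and IGF transcription, 2 were higher and 3 lower in senescent against young cells at 20% oxygen (median 0.16). The zinc finger factors PLAGL1 and PLAG1 were 2.35-fold and 2.06-fold higher, and CTCF, which binds the imprinting control region of IGF2, and E2F3 1.86-fold and 1.84-fold lower. In young cells at 3% against 20% oxygen PLAGL1 was 2.17-fold and PLAG1 1.53-fold higher, and E2F3 1.72-fold and EGR1 1.49-fold lower (median -0.07). In old 3% against senescent 20% cultures CTCF was 1.77-fold higher and EGR1 1.30-fold lower (median -0.07), and in old against young cells at 3% oxygen EGR1 alone was called, 1.40-fold lower (median 0.08).

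**Figure D4:**
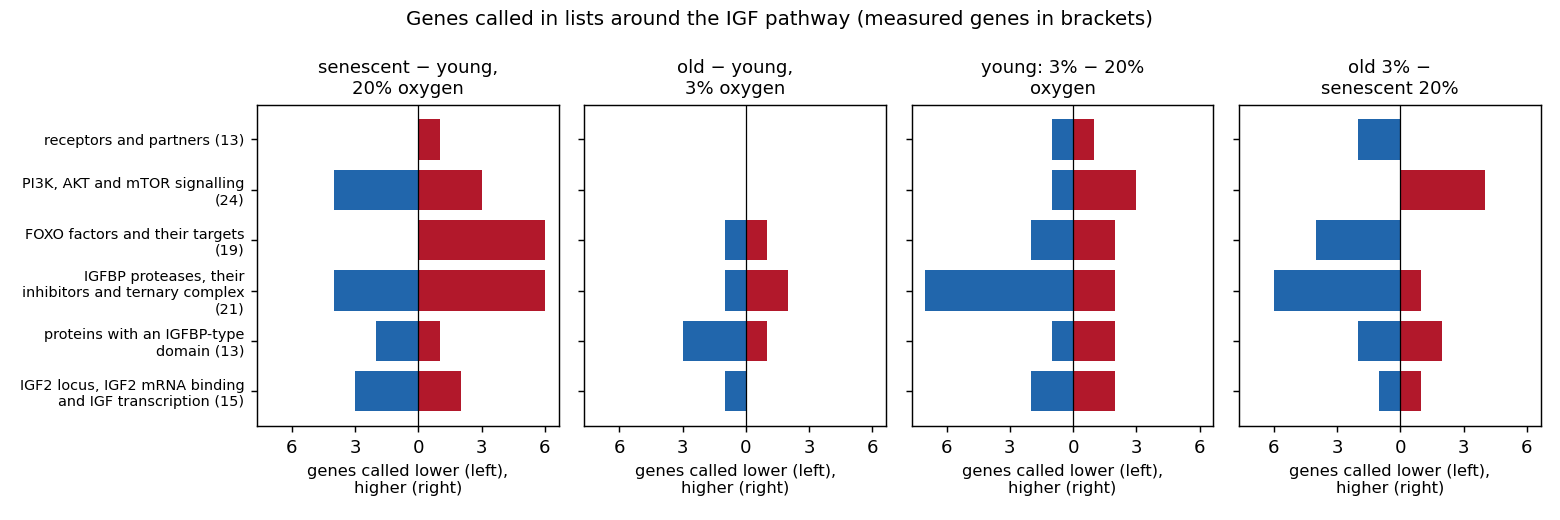
Number of called genes, higher (right of 0) and lower (left of 0), in each of the 6 pathway lists, by comparison. In senescent against young cells at 20% oxygen 6 of 19 FOXO genes and targets were higher and none lower, and in young cells at 3% against 20% oxygen 7 of 21 genes of the protease list were lower. Over all genes 4.67% were called higher and 7.84% lower in the first of these comparisons, and 6.84% lower in the second.

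Because each probe set is centred, the presence of a marker cannot be read from these values, only its change. Of 12 fibroblast markers, 1 was higher and 5 lower in senescent against young cells at 20% oxygen, where 12.5% of all genes were called. In young cells at 3% against 20% oxygen 1 was higher and 4 lower, where 11.8% of all genes were called. The mean of the 12 lay between -0.16 and -0.01 on the arrays of the other groups and between 0.21 and 0.25 on the young 20% arrays, the group that both comparisons share. The part of that shift in the IGF family changes was not tested. In the 4 comparisons between groups, limma called none of 8 endothelial or 8 immune markers, of which at most 1 per list and comparison had an unadjusted p under 0.05. Of 12 epithelial markers 1 was called, lower in young cells at 3% than at 20% oxygen. Of 8 pericyte and smooth muscle markers, 1 was higher and 2 lower in each of the comparisons with young 20% cultures. In old 3% against senescent 20% cultures 2 of these 8 were higher and 2 lower, where 11% of all genes were called. Of the fibroblast markers 2 were higher and 3 lower in that comparison. The part of these markers in the IGFBP2, IGFBP4 and IGFBP5 differences was not tested. The ACTB difference between 3′ and 5′ control probe sets was 0.71 on 1 young 3% array and between -0.22 and 0.35 on the other 11.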

How the data were processed

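Total RNA of 12 Imr90 samples, extracted with TRIzol, was hybridised to 1-colour Affymetrix arrays. The deposited values are RMA signals, per the submitters' processing notes, in which no version is given. They hold no missing value, and every probe set has a median of 0 over the 12 arrays within 5.0e-07, so the authors deposited log2 values centred per probe set (the base 2 is RMA's usual scale). Background level and detection therefore cannot be judged, and the number of arrays limits the precision.

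Probe sets were named from the platform annotation. Of the 54675, 41091 name 1 gene and 1801 name several, and 62 are controls. Probe sets of a gene were averaged, and limma 3.58.1 in R 4.3.3 was fitted to all 12 arrays with 4 groups (lmFit, eBayes), with Benjamini-Hochberg adjustment over 19775 genes, or 54613 probe sets, per comparison. The fit was tested on simulated data. All measured family genes are named, with up to 4 called genes per list and comparison and the 3 genes nearest in course to each called family gene. The family, its lists and the tests were chosen with earlier results of these data known. Same-numbered old 3% and senescent 20% arrays deviated together (correlations of 0.13, 0.52 and 0.67), and no other 2 groups did so in all 3 pairs. No 2 arrays were identical. Alternatives covered the normalization, the probe sets, the fit, the threshold, a replicate block and each array left out.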

Additional observations from a re-analysis of the deposited data

Results flagged for a closer look

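The change with passage differed between the oxygen levels for 2 of the 9 measured family genes, by the test of the difference itself. For IGFBP3 the change in senescent against young cells at 20% oxygen exceeded that in old against young cells at 3% oxygen by 1.57 (log2, adjusted p = 1.40e-05). For IGFBP2 the difference was -1.41 (log2, adjusted p = 0.00765), a call that ended when the arrays were quantile normalized again (adjusted p = 0.0713). The late cultures at 20% oxygen were senescent and those at 3% oxygen were not, so oxygen and senescence cannot be told apart in this difference.

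IGF2 was not measured by a probe set of its own, but 3 probe sets name it together with INS-IGF2, the neighbouring read-through gene, and lie outside the comparisons above. Probe set 202409_at stood at 1.84, 1.96 and 1.78 in old 3% cultures, at 0.30, -0.43 and 0.25 in young 3% cultures, at -0.40, -0.23 and -0.54 in senescent 20% cultures and at 0.14, -0.14 and -0.22 in young 20% cultures. The old 3% arrays were far above all other arrays. The change was 1.82 in old against young cells at 3% oxygen (log2, adjusted p = 0.000311) and 2.25 in old 3% against senescent 20% cultures (log2, adjusted p = 5.78e-06). Probe set 202410_x_at was higher by 0.71 in old 3% than in senescent 20% cultures (log2, adjusted p = 0.0279), with 0.79 in old against young cells at 3% oxygen (adjusted p = 0.0709). Probe set 210881_s_at was called in neither comparison (0.21 and 0.72, log2). In the interaction of passage and oxygen 202409_at was called with -2.14 (log2, adjusted p = 0.000388). There 202410_x_at had -0.93 (adjusted p = 0.0571) and 210881_s_at -0.50, and these were not called. Which of the 2 genes the signal comes from was not tested.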

How the results depend on the processing

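The calls of IGFBP3 and IGFBP5 in young cells at 3% against 20% oxygen, of IGFBP3 in senescent against young cells and in the interaction, and of IGFBP2, IGFBP4 and IGFBP5 across oxygen ended under no other normalization, fit or array left out. A minimum absolute change of 1 (log2) left 2 of the 4 genes called in senescent against young cells at 20% oxygen, 0 of 1 in old against young cells at 3%, 3 of 6 in young cells at 3% against 20% and 2 of 4 in old 3% against senescent 20% cultures. An adjusted p under 0.01 left 2 genes in senescent against young cells and 0 in old against young cells. With 1 array left out, 2 to 4 genes were called in senescent against young cells and 0 to 1 in old against young cells. IGFBP3 in old against young cells at 3% was also lost, for a count of 0, with an intensity trend and robust fit (adjusted p = 0.113), the most variable probe set per gene (0.224), only the 2 groups (0.183), the filter on flat genes (0.0791) and the replicate block (0.0686), and between 0.0503 and 0.125 without any 1 of 10 arrays. Quantile normalization again left 1 of the 2 interaction calls. The replicate block ended no other call, and in the old 3% and senescent 20% arrays alone it left the 4 calls between them. By probe set 213910_at alone IGFBP7 was -0.67 in senescent against young cells, the reverse of its gene mean. Array quality weights added IGF1 (-0.19, adjusted p = 0.0394) and IGFBP6 (0.16, adjusted p = 0.0374) to senescent against young cells, and IGFBP6 (0.36, adjusted p = 0.0415) to the interaction. With these weights 6203 of all 19775 genes were called in senescent against young cells, against 2474 in the main fit. In the interaction 2684 were called, against 1273. The causes of these shifts were not tested. Centred values allow no filter on low signal, so flat genes were filtered instead, and the interaction has no fit with only 2 groups.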
